A study of Mus musculus with 12 samples.

Results

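The linker histone H1 genes are described here across newborn and week-old mouse ovaries that lack or carry Lhx8, a LIM homeobox transcription factor of oocytes. Of the 7 H1 genes considered (H1f0, H1f1, H1f2, H1f3, H1f4, H1f5 and H1f8), matched by Entrez ID so that older symbols such as Hist1h1c for H1f2 and H1foo for H1f8 were included, 6 had a probe named in the platform annotation, with 7 probes in all. The whole array held 45281 probes and named probes of 19057 genes. The set was chosen by the P0 scores of H1f2, which were high in the newborn knockout, so the P0 genotype values of H1 genes are given as a description, with no test.

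There were 4 groups of 3 animals each: Lhx8 knockout at postnatal day 0 (P0), Lhx8 wild type at P0, Lhx8 knockout at P7 and Lhx8 wild type at P7. All 12 animals shared a mixed background of 129, C57BL/6 and SF1, and the labels name no promoter or cell type to which the Lhx8 mutation was limited. The labels call the tissue oocytes but their protocols describe whole ovaries, which hold oocytes, granulosa, stromal, vascular and blood cells together. In such bulk RNA, fewer cells of a type and less RNA per cell cannot be told apart. RNA was labelled from an oligo-dT primer on Illumina BeadChips, 1 array an animal.

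Linker histones bind the nucleosome where DNA enters and leaves it and help to fold the chromatin fibre. H1f1 to H1f5 are replication-dependent genes of the large histone cluster: their transcripts are made mainly in S phase and usually end in a stem-loop in place of a poly(A) tail, although some also give polyadenylated transcripts in cells that have left the cycle. H1f0 and H1f10 are replication-independent and polyadenylated. H1f8 encodes the oocyte linker histone, which accumulates as oocytes grow and is replaced by somatic H1 proteins in the early embryo. H1f6, H1f7 and Hils1 are testis forms. A probe on an array labelled from oligo-dT reads polyadenylated transcripts, so low scores of cluster genes do not measure their stem-loop transcripts.

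The 5 cluster members share 1 motif at nearly the same distance from the start, CCAATCA, and 4 of them also share the H1 box. The 130 bases before each annotated start are shown for that reason, with those of H1f8 for comparison. Capitals mark the H1 box (AAACACA), the CCAAT box, the TATA box (TATAAA) and the element TGATTG, reported for LHX8 binding, on either strand. The sequences are those of RefSeq on GRCm38.p6, read 5′ to 3′ on the strand of the gene. H1f1 lies at chr13:23763538-23763667 (plus strand), H1f2 at chr13:23738677-23738806 (plus), H1f3 at chr13:23554902-23555031 (plus), H1f4 at chr13:23622559-23622688 (minus), H1f5 at chr13:21780626-21780755 (minus) and H1f8 at chr6:115944801-115944930 (plus).
H1f1: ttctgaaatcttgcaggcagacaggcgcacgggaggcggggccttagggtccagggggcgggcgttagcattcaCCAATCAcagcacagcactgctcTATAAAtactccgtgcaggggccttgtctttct
H1f2: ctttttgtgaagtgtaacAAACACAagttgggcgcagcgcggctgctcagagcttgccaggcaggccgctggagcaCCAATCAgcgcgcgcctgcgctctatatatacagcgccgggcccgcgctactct
H1f3: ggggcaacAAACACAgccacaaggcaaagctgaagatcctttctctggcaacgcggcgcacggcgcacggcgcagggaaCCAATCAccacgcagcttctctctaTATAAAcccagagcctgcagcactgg
H1f4: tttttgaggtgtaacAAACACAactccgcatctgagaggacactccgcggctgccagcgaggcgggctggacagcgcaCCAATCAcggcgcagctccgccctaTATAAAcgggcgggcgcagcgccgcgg
H1f5: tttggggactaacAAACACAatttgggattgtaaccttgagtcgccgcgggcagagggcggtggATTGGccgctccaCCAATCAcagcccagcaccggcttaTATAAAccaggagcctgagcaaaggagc
H1f8: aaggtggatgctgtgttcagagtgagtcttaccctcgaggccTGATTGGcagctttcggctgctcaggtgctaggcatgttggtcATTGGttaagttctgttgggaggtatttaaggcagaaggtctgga

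The H1 box began 112 bases before the start in H1f2, 122 in H1f3, 115 in H1f4 and 117 in H1f5, and these letters were not in the windows of H1f1, H1f8 or H1f0. The nearest CCAAT box of the cluster members lay in a tight band, 56 bases before the start in H1f1, 54 in H1f2, 51 in H1f3, 52 in H1f4 and 53 in H1f5. In each of these it reads CCAATCA, so that the reverse complement of TGATTG overlaps it. The nearest TATAAA began 33, 26, 27 and 28 bases before the start in H1f1, H1f3, H1f4 and H1f5, whereas H1f2 has the letters tatatata there. H1f8 has TGATTG 88 bases before its start, overlapping a reversed CCAAT box, and a further reversed CCAAT box 45 bases before it.

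Over the whole 300-base promoter records, the H1 box was in 4 of the 7 H1 genes and in 7.2% of 32851 promoters. CCAAT was in 6 of the 7 and in 37.4% of promoters, TATAAA in 4 and 13.6%, and TGATTG in 6 and 14%. Among 46 replication-dependent core histone promoters, 60.9% held TGATTG, 82.6% CCAAT, 58.7% TATAAA and 8.7% the H1 box. These matches describe letters in a window and carry no measure of binding.

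**Figure D1:**
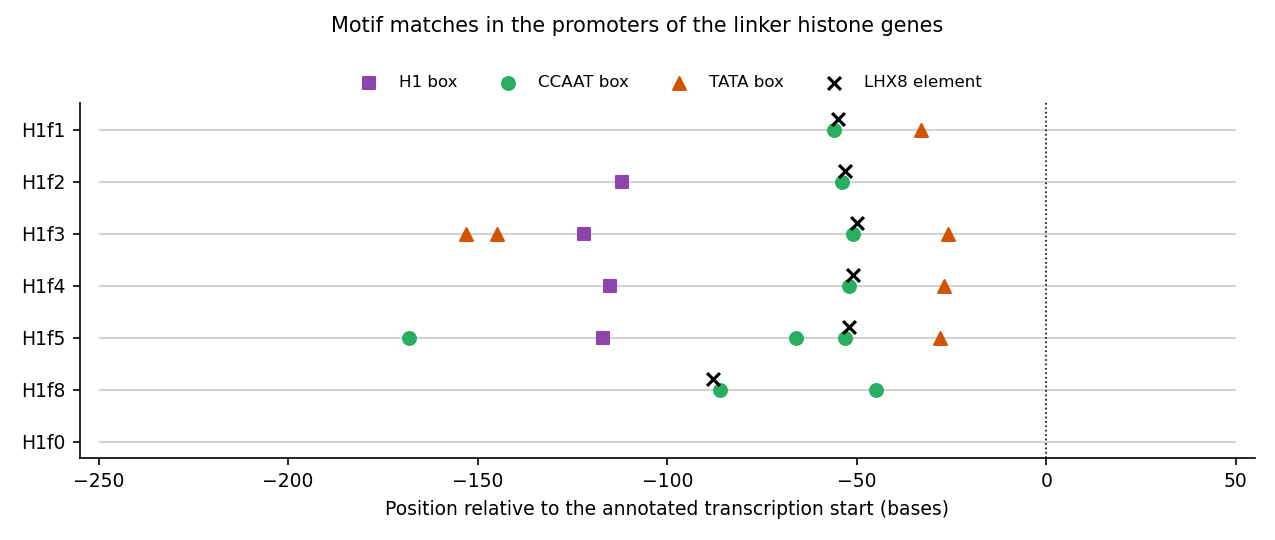
Positions of motif matches in the promoter records of the 7 H1 genes, in bases relative to the annotated transcription start (0, dotted line), 1 row a gene. H1f1 to H1f5 have a CCAAT box at 51 to 56 bases before the start with the LHX8 element overlapping it, and the H1f0 record has no match to any of the 4 motifs drawn.

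The deposited values are scores with a mean of 0 and a standard deviation of 1 on each array, which were quantile-normalized here, so all levels and differences below are in z units and no fold change is given. Background was taken on each array as the 95th percentile of 1528 olfactory, vomeronasal and trace amine receptor probes. It ran from −0.043 to 0.076 in P0 knockout arrays, −0.209 to −0.119 in P0 wild type, −0.417 to −0.376 in P7 knockout and −0.433 to −0.411 in P7 wild type. The share of probes above it was 28.4% to 31.6%, 33.8% to 36.9%, 46.0% to 48.8% and 48.4% to 50.4% in the same order of groups. P7 values were deposited with 2 decimals and P0 values with 6, so age and the run of processing or export cannot be told apart. Lhx8 itself scored −0.33, −0.23 and −0.15 in P7 knockout ovaries, against 0.92, 0.84 and 1.16 in P7 wild type (adjusted p = 2.5e-05, limma), and 0.30, 0.18 and 0.26 in P0 knockout, against 0.95, 1.24 and 1.71 in P0 wild type. Its probe was above background on all 6 knockout arrays, and the position of that probe in the Lhx8 gene was not examined, so it is a limited check of the labels.

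Of the 7 H1 probes, 5 were above background on at least 3 of the 12 arrays and were tested: both of H1f2 and those of H1f3, H1f5 and H1f8. H1f8 passed through its 6 wild-type arrays alone. The probes of H1f1 and H1f4 were below background on every array, with scores of −0.72 to −0.47 and −0.77 to −0.47. H1f0 had no probe named in the annotation used here. Both groups of H1f1 and of H1f4 were below background at each age, so no difference is given for them.

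H1f8, the oocyte linker histone, was lower in the P7 knockout. At P7 it scored −0.74, −0.77 and −0.59 in knockout ovaries, against 2.29, 2.19 and 3.01 in wild type. All 3 knockout arrays were below background, all 3 wild-type arrays were far above it, and the groups did not overlap. The difference was −3.19 ± 0.16 (SE, n = 3 each), with an adjusted p of 4.32e-09 by limma over all 23136 probes tested. H1f8 entered that fit through wild-type arrays alone, and with no filter on low values the difference was again −3.19 (adjusted p = 4.66e-10, limma). Both fits use the same scores, with the knockout scores below background, so the second adds no support to the first. Because the knockout arrays give only a bound, the difference taken against their background level was at least −2.89 in size. Of all probes tested, 27.9% were called in this comparison (13.7% as higher and 14.2% as lower in the knockout) and 50.8% did not overlap. Of the 5 H1 probes 1 was called and did not overlap, that of H1f8, and the count is given as a description.

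At P0 H1f8 scored −0.50, −0.47 and −0.46 in knockout ovaries, against 0.74, 1.01 and 0.67 in wild type. Again no knockout array was above background, and the difference taken against their background level was −0.80. In wild type, H1f8 rose with age: it averaged 2.50 ± 0.45 at P7 and 0.81 ± 0.18 at P0 (SD, n = 3 each), a difference of 1.69 ± 0.16 (SE, adjusted p = 2.16e-06, limma). In knockout ovaries both ages were below background, at −0.70 ± 0.10 at P7 and −0.48 ± 0.02 at P0. The P7 and P0 genotype differences of H1f8 were −3.19 and −1.28 as measured, −1.91 apart, and at least −2.89 and −0.80 in size against background. Because both rest on knockout levels below background and the P0 contrast chose the set, no test of their difference is given. Over the whole array 10.7% of probes passed the interaction test, 4.85% in this direction, and of the 5 H1 probes 1 did, that of H1f8, from which nothing is read. The order of its levels was thus P7 wild type, P0 wild type, and then both knockout groups, between which no order can be read.

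Oocyte markers moved with H1f8. At P7 all 15 tested oocyte markers, H1f8 among them, were lower in the knockout, against 31.7% of all genes called and 14.9% called lower. Lhx8, the gene knocked out, is also in this list, so its fall is no independent result. What its probe reads in the knockout was not examined. Bmp15, Zp1, Oosp1, Mos and H1f8 passed the filter through their 6 wild-type arrays alone, so the count is given as a description. The largest differences were −4.96 for Ooep, −4.77 for Gdf9, −4.40 for Zp3 and −4.21 for Padi6. At P7 the mean score of the 14 other than H1f8, Lhx8 included, was 0.25 to 0.40 over knockout arrays and 3.16 to 3.37 over wild-type arrays. Of these 14, Bmp15, Zp1, Oosp1 and Mos were, like H1f8, below background on every P7 knockout array, and 9 were above it on all 3, among them Nlrp5 at a mean of 2.08 and Sohlh1 at 2.13. At P0 the same mean was 0.29 to 0.53 in knockout and 1.98 to 2.62 in wild type, and Bmp15, Zp1, Zp3, Padi6, Oosp1, Nobox and Mos were below background on every P0 knockout array. Of 8 tested markers of germ cells in general, 7 were lower and 0 higher in the P7 knockout, where their mean score was 0.23 to 0.27, against 1.38 to 1.67 in P7 wild type. At P0, 3 of the 8 were lower and 2 higher, against 10.7% of all genes called lower and 9.03% called higher. The 3 lower were Dppa3 at −2.14, Elavl2 at −1.93 and Piwil2 at −0.88. The 2 higher were Dazl at 0.51 and Tex19.1 at 1.13. The part of oocyte number in the H1f8 difference was not tested.

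Over all 12 arrays, the genes whose profile lay closest to that of H1f8, by root mean square distance of scores centred on each gene's mean, were Omt2a (0.188), Omt2b (0.195), Fbxw18 (0.204), Rfpl4 (0.274) and Bcl2l10 (0.275). The median distance over 12210 genes was 1.31. Omt2a averaged −0.25 in P7 knockout and 2.87 in P7 wild type, −0.33 in P0 knockout and 1.21 in P0 wild type. Omt2a and Omt2b are paralogs whose transcripts a probe may not separate.

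H1f2 was the cluster member with clear signal on every array. At P0 its first probe (ILMN_2774537) scored 3.85, 3.24 and 3.85 in knockout ovaries, against 1.71, 2.70 and 2.14 in wild type. Its second probe (ILMN_2855315) scored 3.21, 2.20 and 3.06 in knockout, against 1.75, 2.03 and 1.64 in wild type. Every knockout array was above every wild-type array on both probes, and on both the second knockout animal was the lowest of its group and the second wild-type animal the highest. The differences were 1.46 ± 0.30 and 1.02 ± 0.21 (SE). Since this contrast chose the set, no test is given. Over the whole array 17.9% of probes were called at P0, 7.58% as higher and 10.4% as lower, and 30.2% did not overlap. Of the 5 H1 probes 3 did not overlap, the 2 of H1f2 and that of H1f8, and nothing is read from that count.

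At P7, in animals that the choice did not use, H1f2 showed no detectable genotype difference. The first probe scored 2.50, 2.53 and 2.58 in knockout ovaries, against 3.28, 2.02 and 1.97 in wild type. The second scored 2.49, 2.61 and 2.53 in knockout, against 2.65, 2.29 and 2.14 in wild type. The knockout values lay within the wild-type range on both probes. The differences were 0.12 ± 0.30 (adjusted p = 0.822, limma) and 0.19 ± 0.21 (adjusted p = 0.562). The first wild-type animal decided the size on the first probe: without it the difference was 0.55, which did not pass the test either.

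Over the 4 groups the first H1f2 probe averaged 3.65 ± 0.35 in P0 knockout, 2.54 ± 0.04 in P7 knockout, 2.42 ± 0.75 in P7 wild type and 2.18 ± 0.50 in P0 wild type (SD, n = 3 each). On this probe the P7 knockout arrays (2.50 to 2.58) lay within the ranges of P7 wild type (1.97 to 3.28) and P0 wild type (1.71 to 2.70). The second probe gave 2.82 ± 0.55, 2.54 ± 0.06, 2.36 ± 0.26 and 1.81 ± 0.20 in the same order of groups. On that probe the P0 wild-type arrays (1.64 to 2.03) lay below those of both P7 groups. In knockout ovaries, P7 minus P0 was −1.11 ± 0.30 on the first probe and −0.28 ± 0.21 on the second, so the probes differed in size there. In wild type, P7 minus P0 was 0.24 ± 0.30 and 0.55 ± 0.21. These age differences use the P0 arrays that chose the gene and are given without a test.

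Several measures moved with H1f2 at P0. Of 6 tested leukocyte markers, 5 were higher in P0 knockout and 0 lower (3 higher on the deposited scores), against 9.03% of all genes called higher at P0, and the mean score of the 6 was 1.62, 1.4 and 0.80 in the 3 knockout animals, against 0.65, 0.62 and 0.58 in wild type. The P0 differences were 1.34 for Cma1, 1.26 for Cpa3, 0.73 for Laptm5, 0.34 for Aif1, 0.32 for Csf1r and −0.01 for Tyrobp. The SD over P0 knockout animals was 1.03 for Cma1 and 1.02 for Cpa3, so the mean leans on these genes. The knockout animal with the lowest leukocyte mean, the third, had an H1f2 score of 3.85 on the first probe. The mean over 8 endothelial markers was 1.32 to 1.52 in knockout and 0.89 to 1.26 in wild type at P0. At P7 leukocyte markers were again higher in the knockout, 0.85 to 1.0 against 0.17 to 0.21 in wild type, while H1f2 did not pass the test. The second knockout animal, lowest in H1f2, also had the highest background of the P0 arrays (0.076). The part of these in the H1f2 values was not tested.

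The genes closest to H1f2 in profile were Fabp3 (0.394), Pfkl (0.435), Gadd45g (0.453), Slc12a8 (0.460) and Cotl1 (0.463), against a median distance of 0.723 over all genes. Gadd45g, a growth arrest and DNA damage-inducible gene, averaged 2.57 in P7 knockout, 2.29 in P7 wild type, 3.27 in P0 knockout and 1.65 in P0 wild type. Fabp3, a fatty acid-binding protein, averaged 1.37, 1.55, 2.28 and 1.05 in the same groups. All were found by the same P0 arrays that chose H1f2.

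**Figure D2:**
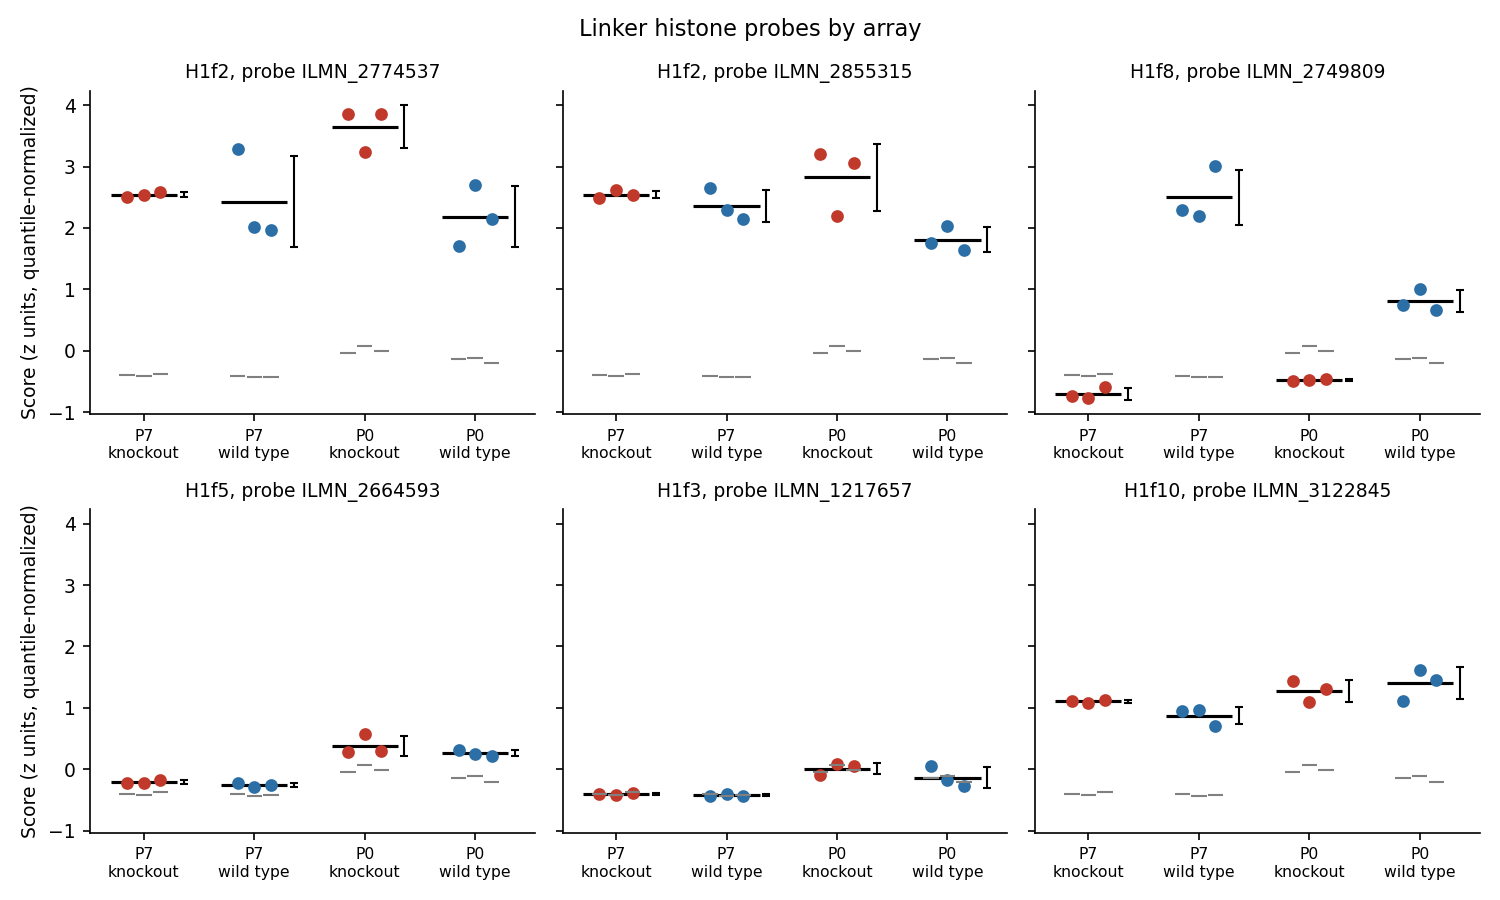
Score of the tested probes of H1f2, H1f8, H1f5 and H1f3 and of the first H1f10 probe on each array (z units after quantile normalization; red knockout, blue wild type), with the group mean (line), SD (bar) and the array's background level (grey tick). H1f8 lies below background on all 6 knockout arrays, both H1f2 probes have their highest group mean in P0 knockout (3.65 and 2.82), and H1f3 lies close to the background level on most arrays.

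H1f5 was detected at low level and did not differ by genotype at P7. It scored −0.22, −0.23 and −0.17 in P7 knockout, against −0.23, −0.29 and −0.25 in P7 wild type (0.05 ± 0.09, SE; adjusted p = 0.733, limma). At P0 it scored 0.28, 0.57 and 0.29 in knockout, against 0.31, 0.25 and 0.22 in wild type. H1f5 fell with age in both genotypes: P7 minus P0 was −0.59 ± 0.09 in knockout (SE, adjusted p = 5.8e-05, limma) and −0.52 ± 0.09 in wild type (SE, adjusted p = 0.000192, limma).

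H1f3 scored −0.40, −0.42 and −0.39 in P7 knockout, against −0.43, −0.41 and −0.43 in P7 wild type, a difference of 0.02 ± 0.08 (SE, adjusted p = 0.896, limma). It was above background on 3 of 12 arrays, 1 each of P7 wild type, P0 knockout and P0 wild type. With each array centred on its median instead, the P7 difference was 0.19 (adjusted p = 0.0351, limma). Its P7 minus P0 difference passed the test at −0.41 ± 0.08 in knockout (SE, adjusted p = 0.000553, limma) and −0.29 ± 0.08 in wild type (SE, adjusted p = 0.00759, limma).

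The background level itself differed by age: P7 minus P0 was −0.408 in knockout and −0.268 in wild type. With each array's background subtracted, the H1f3 differences were −0.00 in knockout and −0.02 in wild type, and neither passed the test. The corresponding H1f5 differences were −0.18 (adjusted p = 0.0459, limma) and −0.25 (adjusted p = 0.0113, limma). In knockout, 50.8% of all probes were called between the ages (20.1% as lower at P7) and 58.6% did not overlap. Leaving out H1f2, 2 of the 3 other H1 probes were called there, both lower. In wild type, 50.5% of all probes were called (28.2% as higher and 22.3% as lower at P7) and 59.3% did not overlap. Leaving out H1f2, 1 of the 3 other H1 probes was higher and 2 were lower.

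**Figure D3:**
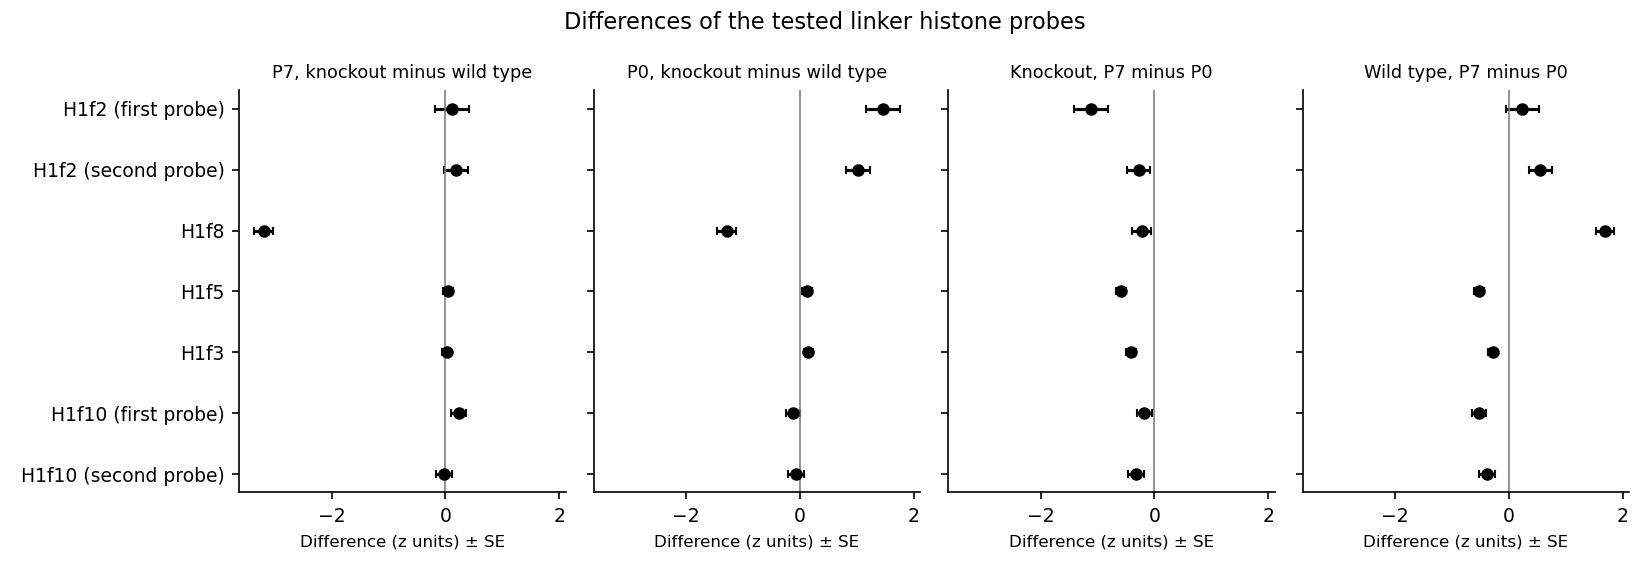
Differences of the tested H1 probes in z units with their SE, for the genotype comparison at P7 and at P0 and for P7 minus P0 in each genotype. At P7 the H1f8 difference is −3.19 and the others lie between −0.02 and 0.23. H1f2 and H1f10 have 2 probes each, of which H1f10's first is ILMN_3122845 and its second ILMN_1247646.

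The other H1 genes of the family gave little. H1f6, H1f7 and Hils1, the testis forms, were below background on every array. H1f10, expressed independently of replication, was above background on all arrays with both probes, and its first probe averaged 1.10 ± 0.02 in P7 knockout and 0.87 ± 0.14 in P7 wild type (SD, n = 3 each; difference 0.23, adjusted p = 0.204, limma). Its second probe differed by −0.02 at P7 (adjusted p = 0.933, limma). In wild type, P7 minus P0 was −0.52 ± 0.13 on the first H1f10 probe (SE, adjusted p = 0.00334, limma) and −0.38 ± 0.14 on the second (SE, adjusted p = 0.0356, limma). Neither was called with background subtracted or on the deposited scores. The second also lost its call without the second or the third P0 animal and without the first or the third P7 animal, where it ran from −0.39 to −0.31.

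Core histones that share the replication-dependent program with H1f1 to H1f5 were examined beside them, using the brightest tested probe of each gene. Of 42 tested genes, 7 were higher and 2 lower in the P7 knockout, against 31.7% of all genes called, 16.8% as higher and 14.9% as lower. H2bc21 averaged 1.28 ± 0.22 in P7 knockout and 0.32 ± 0.14 in P7 wild type, a difference of 0.96 ± 0.11 (SE, adjusted p = 1.51e-05, limma). H2ac18 and H2ac19, near-identical H2A copies that probes may not separate, differed by 0.92 ± 0.15 and 0.73 ± 0.14. H2ac12 was lower in the knockout, at −0.72 ± 0.18. A further H2bc21 probe differed by −0.03 at P7, and 2 further H2ac18 probes by 0.22 and 0.16, none of them called. The list's median difference was 0.144, against 0.037 over all genes. The mean score of the 42, of 50 genes with a probe, was 1.47 to 1.60 in P7 knockout and 1.35 to 1.51 in P7 wild type. Low scores were thus not general among tested replication-dependent genes. Whether these probes read stem-loop or polyadenylated transcripts was not examined.

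With each array centred on its median instead of quantile normalization, 25 of the 42 were called higher and 0 lower at P7, so the count depends on the scaling. That setting moved the median of all genes to 0.182 and that of the list to 0.312. At P0, 2 of the 42 were higher and 3 lower in the knockout, against 19.8% of genes called, 9.03% as higher and 10.7% as lower. H2bc21 was again the highest of these, at 0.80, where its further probe was called lower at −0.40, and H3c6 was at −0.54.

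Of 12 tested genes that act as chaperones for histones or compete with H1 for chromatin, 1 was higher and 6 lower in the P7 knockout, with a median difference of −0.234, against 0.037 over all genes. Of all genes 31.7% were called, 16.8% as higher and 14.9% as lower. Npm2, an oocyte chaperone, averaged −0.46 in P7 knockout, where it was below background on every array, and 2.0 in P7 wild type. The difference was −2.46 ± 0.15, at least −2.40 in size against the background level. Npm2 passed the filter through its 6 wild-type arrays alone, so the count of 6 lower is given as a description. Hmgb2, a DNA-bending protein, differed by −0.74 ± 0.16, Nasp, a histone chaperone that binds H1, by −0.69 ± 0.11, and Nap1l1, a nucleosome assembly protein, by −0.61 ± 0.12. The further Nap1l1 probes differed by −0.19 and −0.36 and were not called. Those of Nasp differed by −0.66, −0.64 and −0.14, and the last was not called. With median centring 4 were higher and 3 lower and the median was 0.142, which is of the other sign but, as before, below the median of all genes (0.182 in that setting).

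Among 9 tested genes of histone transcript 3′ processing and histone gene transcription, 0 were higher and 4 lower at P7, against 16.8% and 14.9% of all genes. Zfp473, a zinc finger protein of the histone pre-mRNA processing complex, scored −0.32 in P7 knockout and 0.79 in P7 wild type (difference −1.11 ± 0.10), and E2f1, a transcription factor of the G1/S transition, differed by −1.04 ± 0.13. Cstf2, a polyadenylation factor, was at −0.39 and Lsm10 at −0.33. With median centring, 2 of the 9 were lower. Of 9 replication-independent core histones, 1 was higher, H3f3b at 0.44, and 2 were lower, H2az1 at −0.64 and Cenpa at −0.48, at P7, a share of 33.3% called that is close to the 31.7% over all genes.

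Of 19 tested S-phase and proliferation genes, 16 were lower in the P7 knockout and 0 higher, against 14.9% and 16.8% of all genes, with a median of −0.513 against 0.037. Birc5, an inhibitor of apoptosis active in mitosis, was at −1.38, Top2a, a topoisomerase, at −0.79, Mcm4, a replication helicase subunit, at −0.78, and Cdk1, the mitotic kinase, at −0.76. The further Top2a probes differed by −0.40, which was called, and −0.10, which was not. The further probes of Birc5 and Mcm4 were all called lower. With median centring 10 of the 19 were lower, with a median of −0.355 against 0.182. The mean score of the 19 was 0.99 to 1.04 in P7 knockout and 1.54 to 1.57 in P7 wild type, while H1f2, H1f3 and H1f5 did not pass the P7 test. At P0 the mean was 0.80 to 1.0 in knockout and 1.01 to 1.22 in wild type, where H1f2 stood higher in the knockout. Granulosa markers, of which 9 were tested, were lower for 6 and higher for 1 at P7, against the same 14.9% and 16.8%. With median centring 4 of these 9 were lower and 2 higher. The part of dividing granulosa cells in these lists was not tested.

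**Figure D4:**
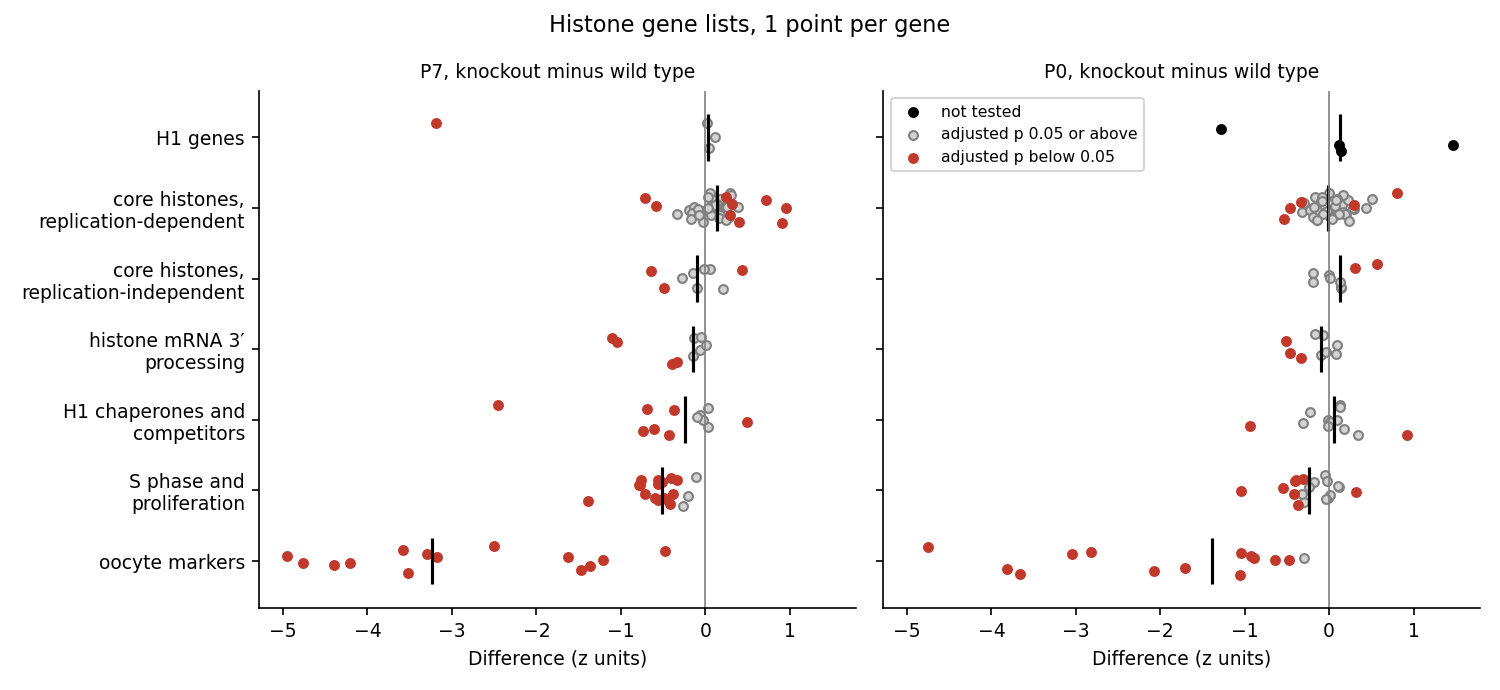
Knockout minus wild type at P7 and P0 in z units for the genes of each list, 1 point a gene (red where the adjusted p is below 0.05, grey otherwise, black where no test is given), with the list's median as a line. At P7 the proliferation genes lie at a median of −0.513 and the oocyte markers lie below 0, while the core histones lie on both sides of 0.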

How the data were processed

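Total RNA of ovaries from 12 mice was measured on Illumina BeadChips. The submitters' processing notes name GenomeStudio 2011.1. Sample titles gave the group and replicate number of each array. What the authors deposited is 1 score a probe, standardized so that every array averages 0 with an SD of 1, as tested on the files. Whether a log preceded them, and how background was treated, are points on which the sources used here are silent. A further 48 columns in 2 tables name a genotype and an animal code but no single sample, and were not used.

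Scores were quantile-normalized over the 12 arrays with limma 3.58.1 in R 4.3.3. Probes above background on at least 3 arrays (23136) were fitted in 1 model of 4 groups (lmFit and eBayes with trend, 8 residual degrees of freedom, no covariate), with Benjamini-Hochberg adjustment over all of them at 0.05. Counts over gene lists take the brightest tested probe of each gene (12210 genes) with its p from the same fit. An exact permutation test of 3 against 3 cannot go below 0.1, so single probes rest on the model. Precision is limited by the number of arrays. Of all probes 34885 had 1 gene symbol, 18 several and 10378 none, and symbols were updated through RefSeq (GRCm38.p6), which held 99.8% of the gene IDs. The replicate numbers were tested for pairing: deviations of same-numbered arrays correlated from −0.158 to 0.143, so no pairing by number was detected. With 3 arrays a group this check cannot exclude one, and the model treats the animals as unpaired. The labels say the replicates are separate animals.

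Named genes were every H1 probe, up to 4 called genes with the largest difference in each list, and the 5 genes closest to H1f2 and to H1f8. Oocyte and germ cell markers named for lying below or above background, or for being higher or lower at P0, were chosen after their values were seen. The tested leukocyte markers are all named. Lists of core histones, H1 chaperones, histone transcript processing, S phase and cell type markers came from textbook knowledge. The members and lists were chosen with earlier results of these data known. Alternatives were the deposited scores, median centring, other filters, 1 probe per gene, 2 groups alone, no trend, array weights, a replicate block and leaving out each array. Background subtraction was added after seeing the data.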

Additional observations from a re-analysis of the deposited data

Results flagged for a closer look

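H1f8 drew attention because its genotype differences at the 2 ages were far apart. Knockout minus wild type was −3.19 at P7 and −1.28 at P0 as measured, −1.91 apart, and at least −2.89 and −0.80 in size against background. H1f8 was below background in the knockout at both ages, and its wild-type mean was 2.50 at P7 and 0.81 at P0. The value of −1.91 therefore sets 2 bounds against each other, 1 of them from the contrast that chose the genes, and carries no weight as a test. No group was large enough for a search for single outlying arrays.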

How the results depend on the processing

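The H1f8 differences at P7 and with age in wild type kept their sign and their calls under every setting tried. P7 differences ran from −3.35 to −2.89 and wild-type age differences from 1.32 to 1.95. H1f8 passed the filter through wild-type arrays alone and was below background on every P7 knockout array. The settings reuse those arrays, so the steady P7 call is a description and adds no support. With the replicate number as a block, 1 H1 probe was called at P7, as without it, and no age call of H1f3, H1f5 or H1f8 changed. H1 calls at P0, the contrast that chose the genes, are not counted here. Counts for the interaction use that contrast and age counts include H1f2, so these say nothing of stability. The H1f2 P0 difference, described only, ran from 1.23 to 1.97 on the first probe and from 0.82 to 1.33 on the second. The number of H1 probes called at P7 was 2 with median centring in place of 1 (H1f3 at 0.19, adjusted p = 0.0351, limma). In knockout, P7 against P0, it was 5 with median centring, 4 on the deposited scores and with the 2 groups alone, and 2 with background subtracted or with 6 arrays above background, in place of 3. For the interaction it was 2 on the deposited scores, with median centring, with 1 probe per gene and with array weights, in place of 1, the added probe being of H1f2. Leaving out 1 array gave 1 to 3 for the interaction (3 without the second P0 knockout animal) and 1 at P7. It gave 3 to 4 with age in wild type and 3 to 4 with age in knockout. The second H1f10 probe reversed with age in wild type on the deposited scores (0.0509, adjusted p = 0.781), and the cause was not tested.

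Over all probes the calls at P0 were 4151, and 1847 with the 2 groups alone, 2624 with 1 probe per gene and 7795 with background subtracted. At P7 they were 6463, and 11146 with median centring, 10331 with array weights and 4031 with 1 probe per gene. With age in knockout they were 11746, and 18864 without a filter, 6042 with 1 probe per gene and 17716 with background subtracted. With age in wild type they were 11694, and 19136 without a filter and 6089 with 1 probe per gene. For the interaction they were 2465, and 4792 with median centring, 1589 with 1 probe per gene, 4118 with background subtracted and 1435 to 2788 with 1 array left out. Calls at P7 were higher in the knockout for 49.1%, for 34.9% on the deposited scores and for 75.5% with median centring. The corresponding shares were 42.3%, 28.3% and 36.9% at P0, 60.5%, 70.2% and 35.1% with age in knockout, 55.9%, 73.1% and 21.8% with age in wild type, and 54.4%, 39.4% and 76.0% for the interaction. With background subtracted they were 43.9% at P7, 6.21% at P0, 94.7% with age in knockout, 88.9% with age in wild type and 86.7% for the interaction. Median centring moved the median difference of all probes to 0.148 at P7 and −0.222 with age in wild type, against 0.023 and 0.035.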
